A study of Gossypium barbadense and Gossypium hirsutum with 72 samples.

Results

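In upland cotton, G. hirsutum, 137 of the 64274 gene models that held a read in any mRNA library turned their branch effect between the pre-squaring and squaring stages. At pre-squaring their mean level was at least 2 times higher in shoot apices of the nulliplex-branch line than in those of the normal-branch line, and at squaring it was at least 2 times higher in the normal-branch line. In both comparisons the 3 libraries of the higher group all lay above the 3 of the lower group, and the mean of the higher group was at least 2 RPKM (reads per kilobase of coding sequence, scaled to the mapped reads of the library, a level per gene length). Before 4 genes were left out by name, 140 genes met these limits. The levels of these 12 G. hirsutum libraries chose the genes, so they are given as a description. The G. barbadense libraries and the G. hirsutum seedling libraries had no part in the choice, and the tests below rest on those.

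Apices of 4 lines were compared, each at 3 stages with 3 libraries per group, which made 36 libraries in 12 groups. Gh2WT denotes G. hirsutum (Gh; Gb for G. barbadense), stage 2, normal branch (WT; np for nulliplex branch). The lines were Huazhong 94-3130 (Gh WT), 3798 (Gh np), Hai1 (Gb WT) and Xinhai16 (Gb np), all field-grown and self-fertilized to purity, with no mutagen, transgene or treatment named. By the labels the seedlings (stage 1) of every line had 2 leaves. At pre-squaring (stage 2) the leaf numbers were 6 for Gh2WT, 5 for Gh2np, 8 for Gb2WT and 6 for Gb2np. At squaring (stage 3), with floral buds visible, they were 8 for Gh3WT, 12 for Gh3np, 11 for Gb3WT and 9 for Gb3np. The study's methods give leaf ranges at pre-squaring for all lines but 3798, each holding the label's number. At squaring they give Gh3WT and Gh3np the same range, which ends below the 12 leaves of the Gh3np label. For Gb3WT they give fewer leaves than the label's 11. The leaf numbers of the labels are used here. The nulliplex- and normal-branch lines are separate varieties and not near-isogenic pairs, so the branch type cannot be told apart from leaf number or from any other difference between the lines. Each library was an apex in bulk, in which fewer cells of a type and less RNA per cell cannot be told apart.

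Between 23856040 and 28096619 reads were assigned to genes per library, and the 137 genes held from 0.123% of them in a Gh2WT library to 0.747% in a Gh3WT library. The seedling libraries were the least even. The summed level of 4 green-leaf genes was 125 RPKM in Gh1np replicate 2, against 1233 and 1369 RPKM in the other Gh1np libraries. Those genes were carbonic anhydrase CA1, geranylgeranyl reductase GGR, a ferredoxin-related gene and the thylakoid protein TROL. The gap was that of CA1 (104 RPKM against 1224 and 1357), while GGR, the ferredoxin-related gene and TROL were each highest in replicate 2. PCNA2 was 62.9 RPKM in that library against 18.3 and 16.8. Of the 137 genes, 109 were highest in that library of its group, as were 53% of the 38760 genes with a mean of at least 2 RPKM. At least 2 times the level of both other libraries was reached there by 70 of the 137 genes and by 6.17% of all. In Gb1WT, replicate 2 was the highest for 117 of the 137 genes, against 47.6% of all genes. SEP3, a floral homeotic gene, was listed at 0 in all seedling libraries.

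In cotton the main shoot apex first makes leaves and vegetative branches, and later fruiting branches that end in flowers. In nulliplex-branch plants the flowers sit directly in the leaf axils of the main stem, with no fruiting branch between. A shoot apex is rich in dividing cells, and the genes of DNA replication, such as the sliding clamp PCNA, rise and fall together with the share of cells in S phase. Most of the 137 gene models carried no name in the sources used here, so they are given by identifier. Arabidopsis homologues are given in the study for a few of them, all of unknown function: CotAD_20876 and CotAD_74231 (both At4g28310), CotAD_56138 (At3g56870) and CotAD_17275 (At3g48490). The gene models are those of the G. hirsutum genome. Reads from duplicated copies of a gene in the tetraploid genome may be shared between models, since the treatment of reads with several matches is not given in the sources used here.

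The turn in G. hirsutum was made mostly of a rise in the normal-branch line and, less often, of a fall in the nulliplex-branch line. The mean was higher in Gh3WT than in Gh2WT for 135 of the 137 genes, and at least 2 times higher for 115 of them, with a median ratio of 3.11. The mean was lower in Gh3np than in Gh2np for 129 genes, at least 2 times lower for 74, and the median ratio of Gh3np to Gh2np was 0.463. Both steps reached 2 times in 52 genes, the step in the normal-branch line alone in 63 and the step in the nulliplex-branch line alone in 22. The high groups lay close to each other, with a median ratio of 1.19 for Gh3WT over Gh2np, and so did the low groups, with 1.22 for Gh3np over Gh2WT. Over all 12 groups, the highest mean was that of Gh3WT for 72 genes and that of Gh2np for 27.

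**Figure D1:**
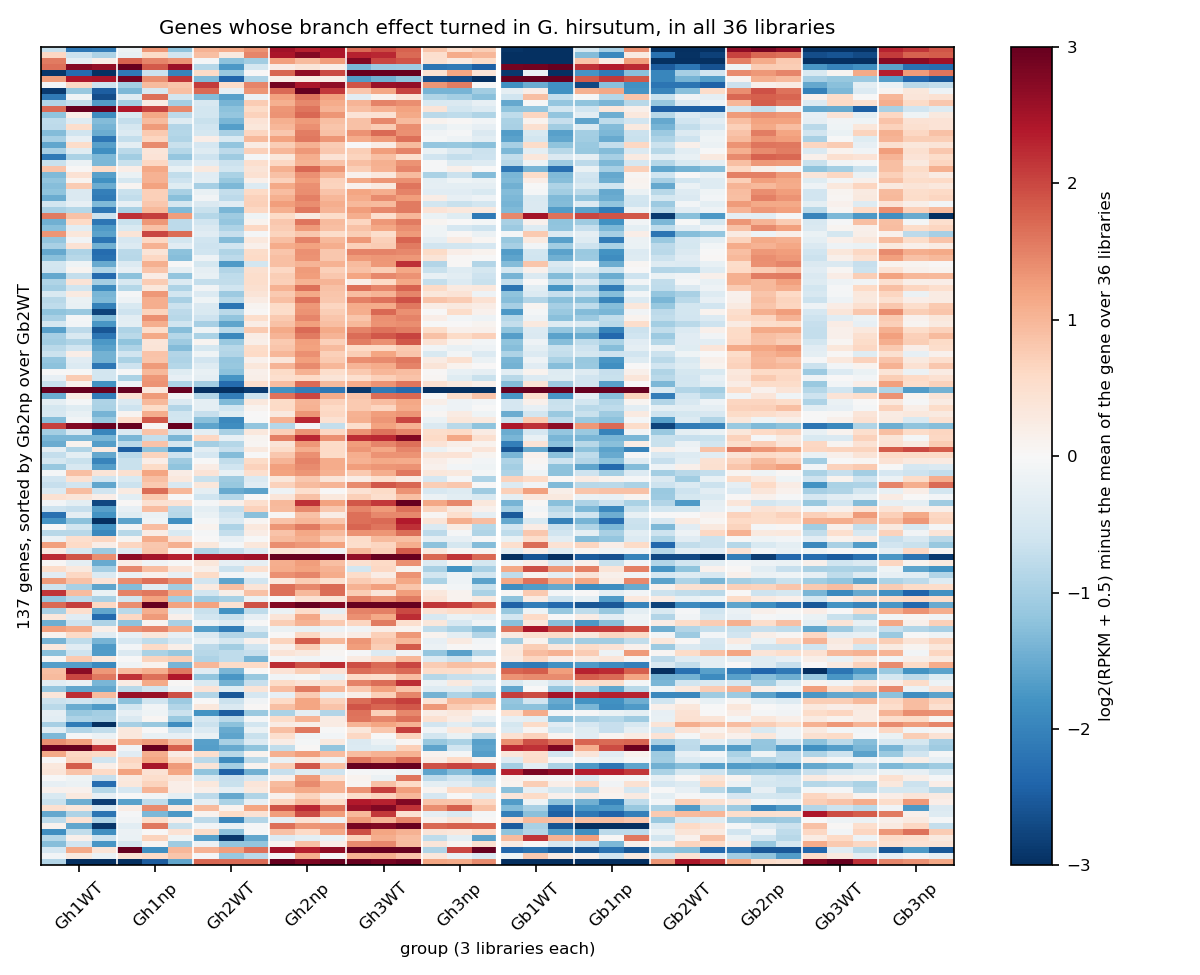
Level of each of the 137 genes (rows, sorted by the ratio of Gb2np to Gb2WT) in all 36 libraries (columns, 3 per group), as log2(RPKM + 0.5) minus the mean of that gene over the libraries. The Gh2np and Gh3WT columns, which chose the genes together with Gh2WT and Gh3np, are red in most rows, the Gb2np columns are red in the upper rows, and the blue rows at the top in Gb1WT, Gb2WT and Gb3WT are genes with few or no reads in Hai1.

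Most of the genes lay near the lower limit. The median fold was 2.39 for Gh2np over Gh2WT (highest 11.96) and 2.49 for Gh3WT over Gh3np (highest 8.62). The fold was under 3 in 110 genes at pre-squaring and in 99 at squaring, and 6 genes reached 3 times at both. Nearest inside the limits were CotAD_40542 with 2.57 and 2.002 times (pre-squaring and squaring), CotAD_43070 with 2.003 and 2.81, and CotAD_71044 with 2.15 and 2.004. Nearest outside were CotAD_33796 with 2.35 and 1.999, CotAD_06850 with 2.01 and 1.999, and CotAD_12461 with 1.998 and 4.42. With 1 G. hirsutum library left out, from 84 genes (without Gh2WT replicate 2) to 198 (without Gh2WT replicate 3) met the limits. The test used below (edgeR, adjusted p under 0.001 and over 2-fold) called 1 of 136 tested genes higher in Gh2np, where 0.117% of all genes tested were called higher, and 41 of 137 lower in Gh3np, where 0.912% were called lower. These 2 comparisons chose the genes, and nothing is read from those counts.

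The largest turns, taken as the smaller of the 2 log2 ratios after adding 0.5 RPKM, were those of CotAD_29788 (2.21), CotAD_33967 (1.83), CotAD_65204 (1.81), CotAD_73772 (1.61) and CotAD_06969 (1.56). CotAD_29788 was at 8.08, 2.11 and 5.25 RPKM in the Gh2WT libraries and at 18.9, 35.98 and 22.0 RPKM in Gh2np. At squaring it was at 49.0, 57.9 and 67.8 RPKM in Gh3WT and at 7.41, 12.5 and 7.03 RPKM in Gh3np. It was low in seedlings of this species, with means of 0.347 RPKM in Gh1WT and 1.65 in Gh1np. CotAD_06969 was likewise at 0 in 5 of the 6 G. hirsutum seedling libraries and reached a mean of 6.55 ± 1.59 RPKM (SD, n = 3) in Gh3WT.

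The genes were shorter than most and spanned a wide range of levels. Their median coding length was 798 bases (168 to 2985), against 1065 over all genes with a mean of at least 2 RPKM. Mean levels over the 36 libraries ran from 0.893 to 313 RPKM with a median of 8.94. In 13 genes the mean was over 100 RPKM and in 48 it was under 5. In G. barbadense, whose libraries did not choose the genes, the mean over the 12 later libraries was at least 2 times that over the 6 seedling libraries for 49 of the 111 genes with a mean of at least 2 RPKM there (44.1%, against 20.2% of all such genes). The seedling mean was at least 2 times the later mean for 19 (17.1%, against 8.55%).

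The 4 genes with an Arabidopsis homologue named by the study turned as the rule required. The pair of At4g28310 homologues lay at levels near that of PCNA2 and the others at a few RPKM. CotAD_20876 was at 9.45, 7.41 and 21.0 RPKM in Gh2WT and at 56.0, 73.6 and 56.3 in Gh2np, then at 19.1, 25.8 and 31.7 in Gh3WT and 12.5, 11.4 and 9.66 in Gh3np. CotAD_74231, the second homologue of At4g28310, was at 14.7, 9.46 and 35.7 RPKM in Gh2WT and at 56.3, 73.4 and 55.1 in Gh2np, then at 29.2, 29.4 and 48.5 in Gh3WT and 12.1, 12.7 and 11.4 in Gh3np. In both genes the fall in the nulliplex-branch line was the larger step, and Gh3WT stayed below Gh2np in every library. CotAD_56138 stood at 5.47 ± 0.28 RPKM (SD, n = 3) in Gh2np and 5.21 ± 2.03 in Gh3WT, against 1.70 ± 0.74 in Gh2WT and 1.38 ± 0.04 in Gh3np. CotAD_17275 was at 5.65, 6.78 and 3.93 RPKM in Gh2np and at 2.55, 2.90 and 8.05 in Gh3WT, so that its Gh3WT libraries spread over 3-fold. Its Gh2WT libraries were at 0.904, 0.590 and 1.62 RPKM and its Gh3np libraries between 1.79 and 1.82.

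**Figure D2:**
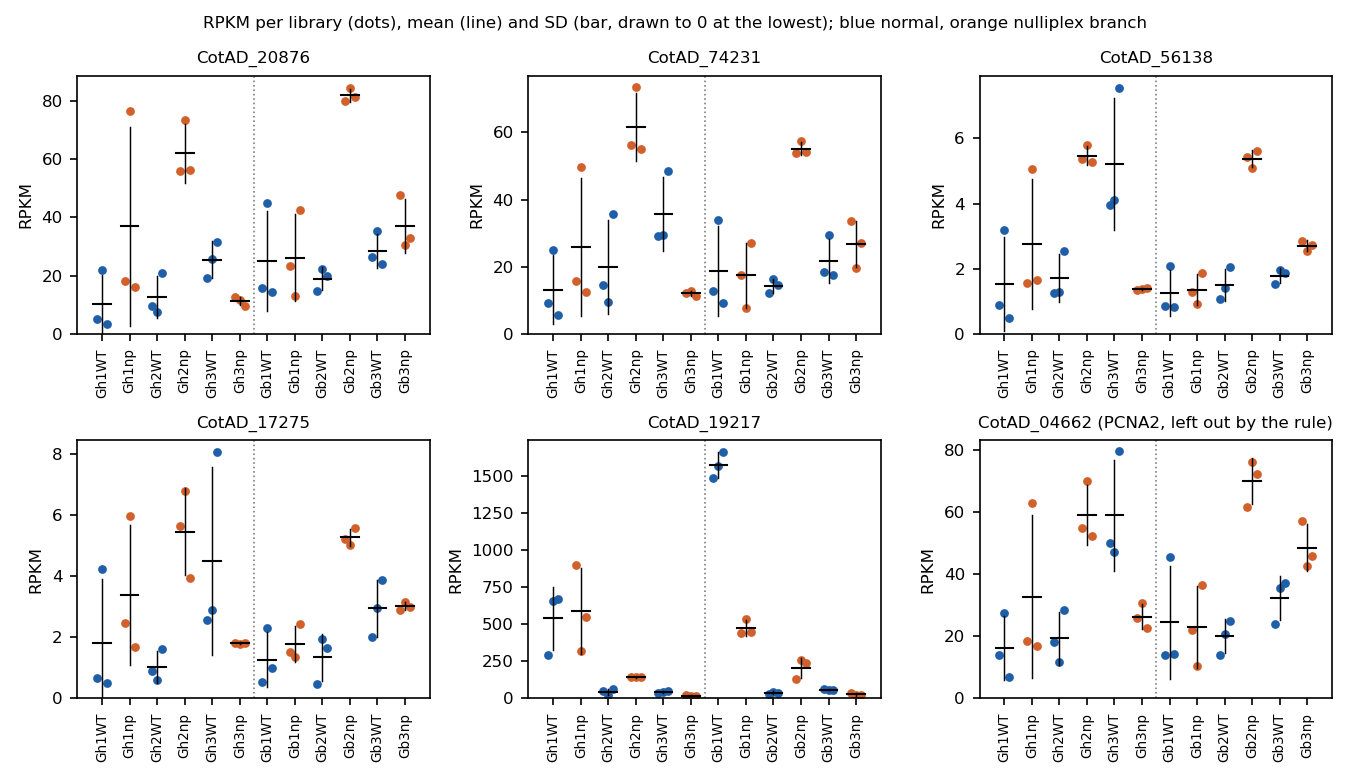
RPKM per library (dots) with group mean (line) and SD (bar) for the 4 genes with an Arabidopsis homologue named by the study, for CotAD_19217 and for PCNA2. PCNA2 met the same limits in G. hirsutum and was left out by name. Blue is the normal and orange the nulliplex branch, with G. hirsutum left of the dotted line. Gb2np stands above Gb2WT in every panel, while Gb3np is above Gb3WT by less or, in CotAD_19217, below it (27.5 against 57.9 RPKM). The study had picked all of these genes but CotAD_19217 as differing specifically at pre-squaring in these same libraries.

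G. barbadense at pre-squaring showed the same direction for a large share of the genes. Of 129 tested, 53 were upregulated in Gb2np and 0 downregulated, where 4.94% of the 46495 genes tested were called in each direction (edgeR quasi-likelihood test, adjusted p under 0.001 and over 2-fold). The log2 fold change had a median of 1.03 and an interquartile range of 0.24 to 1.66, against a median of 0.00 over all genes tested. It was positive for 105 of the 129 (81.4%, against 50.1% of all). The 3 Gb2np libraries lay above the 3 Gb2WT libraries in 84 of the 137 genes and below them in 5, against 27.4% and 24.6% of all genes tested. The other 8 genes held too few reads to be tested in this comparison. At an adjusted p under 0.05 with no fold limit, 77 were called higher and 8 lower, against 20.3% and 20% of all genes. DESeq2 called 62 higher and 1 lower, against 4.31% and 4.34% of all genes. With no filter on low counts 61 were called higher (4.13% of all) and CotAD_65940 lower (log2 fold change -1.30). With the spread estimated over all 36 libraries, the uneven seedlings included, only 10 were called, all higher, against 2.55% of all genes. With the 24 later libraries, an alternative chosen after seeing the data, 37 were called higher and 1 lower, against 3.52% of all genes in each direction.

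Both homologues of At4g28310 and that of At3g56870 were among the upregulated genes. The study had listed the homologues as differing at pre-squaring in these same libraries, so their tests are not independent evidence. CotAD_20876 was at 14.7, 22.3 and 19.8 RPKM in Gb2WT and at 80.1, 84.5 and 81.3 in Gb2np, which is 2.09 higher on the log2 scale (SE 0.12, edgeR adjusted p = 2.5e-07). CotAD_74231 rose from 12.05, 16.3 and 14.6 RPKM to 53.9, 57.6 and 54.1, by 1.92 (SE 0.11, adjusted p = 2.3e-07). CotAD_56138 was 1.81 higher on the log2 scale (SE 0.18, adjusted p = 1.2e-05), with Gb2np between 5.09 and 5.61 RPKM and Gb2WT between 1.08 and 2.05. These 3 calls held when any library was left out. CotAD_17275 had a like difference, 1.94, with a larger error (SE 0.35), and its adjusted p of 0.0011 missed the threshold. CotAD_29788, which had the largest turn in G. hirsutum, was at 0.984, 2.35 and 3.33 RPKM in Gb2WT and at 14.8, 13.6 and 15.4 in Gb2np, and CotAD_60753 had a mean of 0.761 RPKM in Gb2WT and of 4.02 in Gb2np. On the log2 scale these differences were 2.68 (SE 0.30, adjusted p = 3.2e-05) and 2.37 (SE 0.35, adjusted p = 0.00025).

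**Figure D3:**
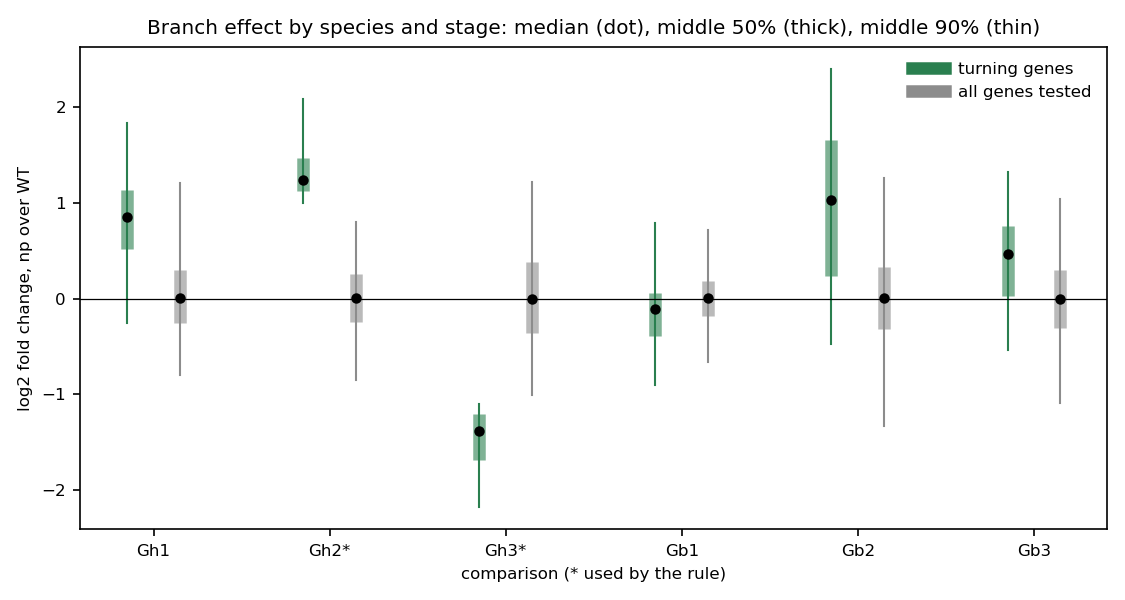
Log2 fold change of the nulliplex- over the normal-branch line in each species and stage, as median (dot), middle 50% (thick bar) and middle 90% (thin bar), for the turning genes (green) and all genes tested (grey); Gh2 and Gh3 chose the genes. The green median was 1.03 at Gb2 and 0.47 at Gb3, and did not fall below 0 at Gb3 as it did at Gh3.

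At squaring the median branch effect in G. barbadense was smaller and still positive. Of 131 genes tested, 4 were upregulated in Gb3np and 0 downregulated, where 0.688% and 0.416% of all genes were called. With an adjusted p under 0.05 as the limit, the counts were 24 higher and 4 lower, against 8.44% and 8.51% of all genes. DESeq2 called 7 higher and 2 lower, against 2.28% and 2.26%. As single libraries were left out, the 24 became 9 (without Gb3np replicate 1 or 3) to 40 (without Gb3WT replicate 3). In both directions together, 8.60%, 7.26% and 20.0% of all genes passed in these 3 fits, against 16.9% in the main fit. The median log2 fold change was 0.47 (0.28 without Gb3WT replicate 1), and 100 of the 131 values were positive (76.3%, against 49.7% of all). The libraries did not overlap with Gb3np higher in 51 of the 137 genes and with Gb3np lower in 5, against 23.5% and 16.3% of all genes. The 4 called genes were CotAD_33967, CotAD_55175 and CotAD_67630, which were nearly absent from Hai1, and CotAD_28128. CotAD_28128 was at 10.1, 10.2 and 10.3 RPKM in Gb3WT and at 23.0, 26.1 and 23.3 in Gb3np, a log2 fold change of 1.20 (SE 0.13, adjusted p = 0.00095). That p is just inside the threshold. Its value at pre-squaring, 1.01, was close to that and not called (adjusted p = 0.0034).

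Of the 129 genes tested at both stages of G. barbadense, 50 passed the threshold at pre-squaring alone, 1 at squaring alone, 3 at both and 75 at neither. The squaring value was the smaller for 91 of them. Among the 53 genes called at pre-squaring, the median log2 fold change was 1.66 at pre-squaring and 0.67 at squaring. Of these 53, 49 stayed above 0 at squaring and 51 had the smaller value there. These 53 were picked for a high value at pre-squaring, so these counts are a description.

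**Figure D4:**
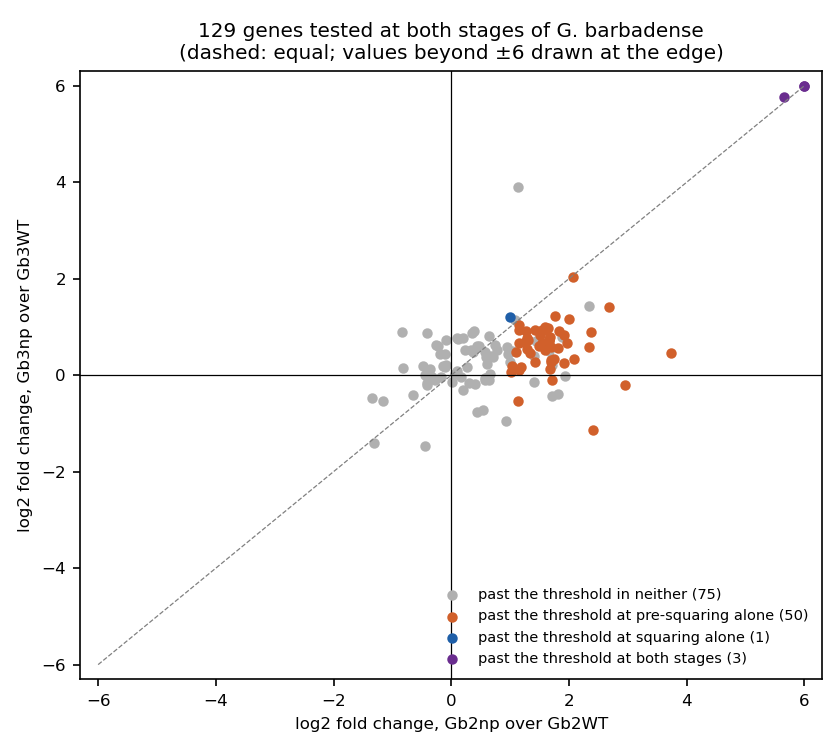
Log2 fold change of Gb3np over Gb3WT against that of Gb2np over Gb2WT for the 129 genes tested at both stages, coloured by the stage at which each passed the threshold; 2 points beyond 6 are drawn at the edge. Most orange points (called at pre-squaring alone, 50 genes) lie right of the vertical axis, above 0 and below the dashed line of equal effects.

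The difference between the 2 stages was tested directly in G. barbadense, as the branch effect at pre-squaring minus that at squaring. Of 131 genes tested, 3 had a larger effect at pre-squaring and 0 a smaller one, where 1.39% and 0.716% of all genes were called (edgeR, same threshold). Both counts were close to those shares, and nothing is read from them. The median difference was 0.56 on the log2 scale and 92 of the 131 were above 0 (70.2%, against 50.9% of all). At an adjusted p under 0.05 with no fold limit, 30 genes were called above and 4 below, against 9.83% and 8.45% of all genes. DESeq2 called 12 above and 1 below at the stricter threshold, against 2.31% and 1.85%. The 3 genes were CotAD_19217 (3.56, SE 0.37, adjusted p = 5.0e-05), CotAD_35518 (3.16, SE 0.34, adjusted p = 6.2e-05) and CotAD_20876 (1.78, SE 0.26, adjusted p = 0.00063). The first 2 calls held in all 12 fits that left out 1 library. That of CotAD_20876 was lost in 10 of them, with adjusted p up to 0.0028, although its difference kept its direction. The study had picked CotAD_20876 as differing specifically at pre-squaring in these same libraries, so its call is not independent evidence.

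CotAD_19217 alone met the G. hirsutum rule in G. barbadense too. It was at 31.1, 45.9 and 38.5 RPKM in Gb2WT and at 130.5, 257 and 236 in Gb2np. At squaring it was at 61.3, 55.0 and 57.5 RPKM in Gb3WT and at 38.5, 23.6 and 20.4 in Gb3np, so neither pair of groups overlapped. The squaring difference on its own (log2 fold change -1.13, SE 0.21) had an adjusted p of 0.010 and was not called. CotAD_35518, of the same coding length (1071 bases), rose from 22.3, 28.0 and 20.5 RPKM in Gb2WT to 118, 219 and 216 in Gb2np, and at squaring its groups overlapped (31.8 to 37.7 in Gb3WT, 26.0 to 42.1 in Gb3np). Applied to the G. barbadense lines, the same limits found 50 genes, of which this was the 1 shared, and the opposite turn found 18 there and 284 in G. hirsutum.

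CotAD_19217 and CotAD_35518 were also the most abundant of the 137 genes, with means of 313 and 307 RPKM over the 36 libraries, through high levels in seedlings. CotAD_19217 was at 1489, 1569.5 and 1662 RPKM in Gb1WT and at 438, 535 and 449 in Gb1np, a log2 fold change of -1.78 (SE 0.17, adjusted p = 0.00099) in the direction opposite to pre-squaring. The 3 libraries of each group lay well apart, but the adjusted p passed the threshold narrowly and missed it whichever library was left out (up to 0.012). The fall from seedling to pre-squaring in Hai1 was -5.71 for CotAD_19217 (SE 0.20, adjusted p = 1.2e-07) and -5.77 for CotAD_35518 (SE 0.20, adjusted p = 1.1e-07).

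The other 8 of the 10 most abundant genes split in G. barbadense at pre-squaring. CotAD_50551 (mean 218 RPKM) was at 82.2, 127 and 148 RPKM in Gb2WT and at 286, 390.1 and 372 in Gb2np, a log2 fold change of 1.54 (SE 0.18, adjusted p = 4.1e-05). CotAD_05235 (mean 223 RPKM) exceeded its normal-branch level by 1.03 (SE 0.16, adjusted p = 0.00038) and CotAD_73358 (mean 120 RPKM) by 1.13 (SE 0.17, adjusted p = 0.00030). The remaining 5 had negative values that were not called: -0.42 for CotAD_29455 (mean 301), -0.09 for CotAD_03725 (mean 267), -0.42 for CotAD_18560 (mean 160), -0.49 for CotAD_06244 (mean 151) and -0.37 for CotAD_50146 (mean 133). CotAD_29455 was thus at 233, 279 and 268 RPKM in Gb2WT and at 199.9, 197 and 195 in Gb2np, with no overlap between the groups.

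CotAD_65940 went the other way in G. barbadense. It was at 97.8, 96.3 and 95.1 RPKM in Gh2WT, at 289, 206 and 295 in Gh2np, at 319, 216 and 249.6 in Gh3WT and at 66.6, 64.4 and 78.3 in Gh3np. In G. barbadense it was lower in the nulliplex-branch line at both stages, by -1.30 at pre-squaring (SE 0.24, adjusted p = 0.0012) and -1.40 at squaring (SE 0.20, adjusted p = 0.0032), neither of them called in this test, although the former was with no filter on low counts. It had the largest called rise of the 137 genes from seedling to pre-squaring: from means of 0.584 to 122 RPKM in Hai1 (log2 fold change 7.35, SE 0.45, adjusted p = 1.3e-06) and from 0.561 to 50.2 RPKM in Xinhai16 (6.17, SE 0.46, adjusted p = 2.7e-05).

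Reads of 3 genes were nearly absent from Hai1 at every stage and present in the other 3 lines. CotAD_33967 had 0 reads in the Gb1WT libraries together, 2 in Gb2WT and 0 in Gb3WT, against 592, 729 and 2212 reads in Gb1np, Gb2np and Gb3np. With a floor of 3 reads over the group, it was at least 194-fold higher in Xinhai16 at the seedling stage and at least 718-fold higher at squaring. At pre-squaring the ratio was 364, with a 95% counting interval from 100.4 to 3012. CotAD_55175 had 1 read in Gb1WT and 0 in both Gb2WT and Gb3WT, against 238, 1345 and 899 reads in the nulliplex-branch line, which made it at least 448-fold higher at pre-squaring and at least 292-fold at squaring. CotAD_67630 was at 0.602, 0.169 and 0.254 RPKM in Gb2WT and at 20.7, 16.8 and 15.9 in Gb2np. On the log2 scale it was 5.66 higher there (SE 0.26, edgeR adjusted p = 4.5e-08) and 5.77 higher in Gb3np than in Gb3WT (SE 0.20, adjusted p = 2.1e-06). In these genes the G. barbadense difference had the same sign at both stages, unlike in G. hirsutum, where CotAD_33967 was at 9.90 RPKM in Gh2np and 2.42 in Gh2WT, then at 5.88 in Gh3np and 22.2 in Gh3WT. Counting intervals and floors cover counting error only. The reads had been aligned to a G. hirsutum genome, and whether Hai1 carries these gene copies was not tested. A further 4 of the 137 genes stayed under 1 RPKM in all 6 G. barbadense groups.

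From pre-squaring to squaring, the Hai1 apices moved in the direction of the G. hirsutum normal-branch line without passing the threshold. Of 125 genes tested, 0 were called by edgeR between Gb2WT and Gb3WT, where 0% of all genes were called. At an unadjusted p under 0.05, 42 genes were higher at squaring and 2 lower (33.6% and 1.6%, against 11.5% and 12% of all genes). The 42 became 27 without Gb2WT replicate 1 and 61 without Gb3WT replicate 1 or with the replicate number as a block. In both directions together, 15.9%, 19.8% and 24.3% of all genes passed in these fits, against 23.5% in the main fit. DESeq2 called 3 higher (0.531% of all). At an adjusted p under 0.05, edgeR called 3 higher (0.659% of all). The median log2 change was 0.41, and 106 of the 125 were above 0 (84.8%, against 51.1% of all). In Xinhai16, 4 of 129 genes rose and 8 fell from pre-squaring to squaring, where 1.8% and 2.31% of all genes did. The falls were led by CotAD_19217 (-2.91, SE 0.29, adjusted p = 0.00014), CotAD_35518 (-2.54, SE 0.26) and CotAD_73358 (-1.70, SE 0.20), and the rises by CotAD_33967 (1.54, SE 0.16), CotAD_03725 (1.26, SE 0.13) and CotAD_06244 (1.22, SE 0.09). The median was -0.09 and turned to 0.04 without Gb3np replicate 2. At an adjusted p under 0.05, 26 were called higher and 32 lower, against 17.3% and 17.4% of all genes. The count of 12 fell to 2 without Gb2np replicate 2, to 1 without Gb2np replicate 3 and to 6 without Gb3np replicate 3, while the share of all genes called fell from 4.11% to 1.48%, 1.34% and 2.35%. These steps share libraries with the branch comparisons above and are not separate evidence.

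From seedling to pre-squaring the genes went apart within a line. In Hai1, 6 of 123 rose and 20 fell, where 9.38% and 10.9% of all genes did, with a median log2 change of -0.31. In Xinhai16, 24 of 128 rose and 15 fell, where 6.96% and 9.56% of all genes did, with a median of 1.00. An adjusted p under 0.05 gave 10 rises and 38 falls in Hai1, against 28.4% and 27.9% of all genes, and 68 rises and 26 falls in Xinhai16, against 28.4% and 28.2%. The measure matters for these steps. As log2 ratios of mean RPKM with 0.5 added, the medians of the 137 genes were 0.06 in Hai1 and 1.09 in Xinhai16. Those of all genes tested were 0.34 and 0.28. Over all genes tested, the edgeR values lay below these ratios by a median of 0.33 and 0.28. The Hai1 median thus changed its sign with the measure and lay below that of all genes on both. By edgeR it ran from -0.48 to 0.18 as single libraries were left out. The largest rises in Xinhai16 were those of CotAD_65940 (6.17), CotAD_38243 (3.25, SE 0.30) and CotAD_29073 (3.23, SE 0.28), and the largest falls those of CotAD_74009 (-4.67, SE 0.20), CotAD_55420 (-4.52, SE 0.25) and CotAD_36533 (-4.24, SE 0.50). CotAD_74009 stood at 314, 299 and 218 RPKM in Gb1np and at 14.6, 11.7 and 13.8 in Gb2np. The number called in Xinhai16 depended on single libraries of both stages. Without Gb1np replicate 3, which had the highest PCNA2 level of its group (36.6 RPKM), 80 genes were called there, and 23.7% of all genes against 16.5% with every library. Without Gb1np replicate 1 there were 21 (9.25% of all genes), and without Gb2np replicate 1, 2 or 3 there were 24, 17 and 17 (8.98%, 7.57% and 7.40%). CotAD_73358, CotAD_50146 and CotAD_19217 were the least like the rest over the 36 libraries. CotAD_73358 was at 449, 430.3 and 533 RPKM in Gb1WT and at 18.04, 13.4 and 11.9 in Gb2WT, a log2 change of -5.38 (SE 0.21).

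In seedlings, before the stages that chose the genes, no branch effect passed the threshold in G. hirsutum. Of 131 genes tested, 0 were called by edgeR, where 0% of all genes were called. DESeq2 called 0 of 137 (0.667% of all genes) and limma 0 of 131 (0.0673% of all genes). At an unadjusted p under 0.05, 16 were higher in Gh1np and 1 lower (12.2% and 0.763%, against 6.81% and 6.33% of all genes). The 16 became 4 without Gh1WT replicate 3, 46 without Gh1WT replicate 2 and 70 with the replicate number as a block. In both directions together, 7.06%, 15.8% and 12.3% of all genes passed in these fits, against 13.1% in the main fit. The log2 fold change was positive for 119 of the 131 (90.8%, against 50.3% of all) with a median of 0.85. That median moved with Gh1np replicate 2, the library low in CA1: it was 0.34 without that library and up to 1.27 without another. The libraries of the 2 groups did not overlap in 14 genes with Gh1np higher and in 1 with Gh1np lower, against 6.91% and 11.5% of all genes tested. In G. barbadense seedlings, CotAD_33967 was the only gene called higher in Gb1np and CotAD_19217 the only gene called lower among 118 tested, where 0.27% and 0.159% of all genes were called. The median was -0.11 and 38 of the 118 were positive (32.2%, against 51.4% of all genes). That direction turned with a library left out: the median was 0.22 with 80 of 119 positive without Gb1WT replicate 2, and 0.02 with 65 of 123 positive without Gb1np replicate 2. At an adjusted p under 0.05, 3 were called higher and 3 lower, against 1.48% of all genes in each direction. The libraries did not overlap with Gb1np higher in 5 of the 137 genes and with Gb1np lower in 8, against 12.4% and 7.64% of all genes tested. The call of CotAD_33967 was lost without any Gb1WT library or without Gb1np replicate 1, although its reads were absent from Gb1WT in each case.

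**Figure D5:**
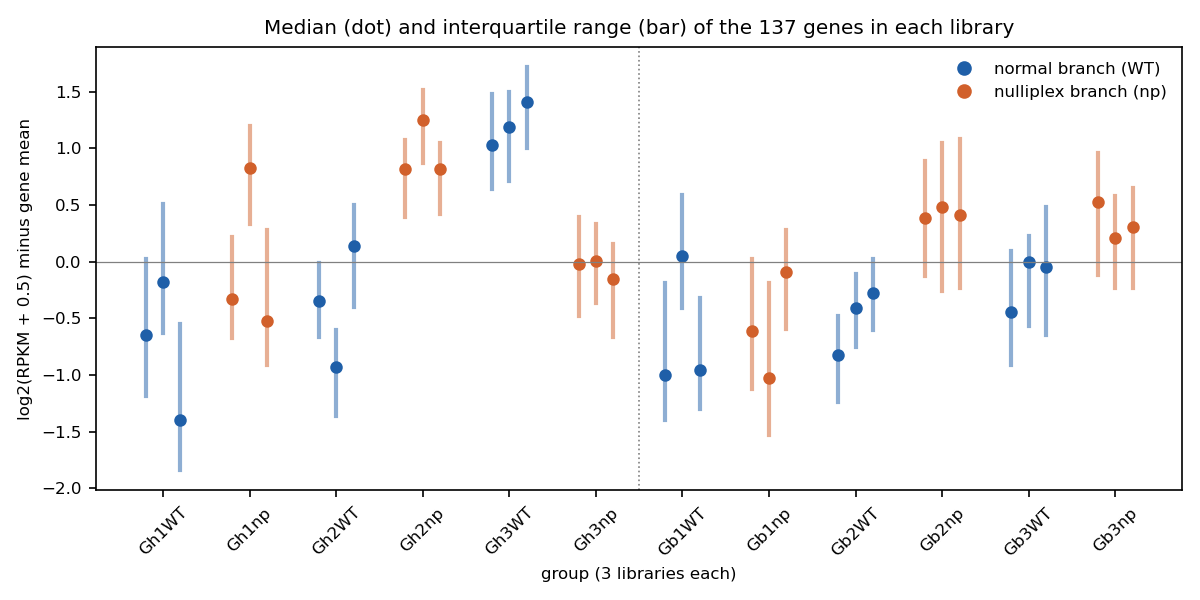
Median (dot) and interquartile range (bar) over the 137 genes of log2(RPKM + 0.5) minus the gene mean, in each library, with blue for the normal and orange for the nulliplex branch. The medians lie from 0.82 to 1.25 in Gh2np and from 1.03 to 1.40 in Gh3WT, from 0.38 to 0.49 in Gb2np against -0.83 to -0.28 in Gb2WT, and spread widely in all 4 seedling groups.

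PCNA2, a sliding clamp of the replication fork, and ATXR6, a histone methyltransferase, met the same limits in G. hirsutum before they were left out, with folds of 3.05 and 2.24 for PCNA2 and of 3.93 and 3.24 for ATXR6. In a list of 9 genes of replication, chromatin and cell division that the study had picked from these same samples, these were the 2 that met them. ORC6, a subunit of the origin recognition complex (2.37 and 1.98), and the cohesin gene SYN3 in its 2 copies (3.84 and 1.91, 3.93 and 1.79) fell short at squaring only, as did BARD1 (2.79 and 1.54), a gene of DNA repair. At squaring the cyclin gene CYCD1;1, the kinesin gene POK2 and the bromodomain gene GTE4 had folds of 0.0688, 0.429 and 0.398. The study had listed them as higher in Gh3np than in Gh3WT, so they could not meet the squaring limit. Their pre-squaring folds were 92.2 (5.36 RPKM in Gh2np against 0.058 in Gh2WT), 0.744 and 1.21. In G. barbadense at pre-squaring 5 of the 9 were called higher in Gb2np and 0 lower. The share of all genes called was 4.94% in each direction. The study had listed those 5 as differing at pre-squaring in these same libraries, so their calls are not independent evidence. At squaring 0 of 9 were called, where 0.688% and 0.416% of all genes were called higher and lower. PCNA2 was 1.79 higher in Gb2np (SE 0.16, adjusted p = 5.5e-06) and 0.54 in Gb3np (SE 0.18, adjusted p = 0.073). The study had picked PCNA2, ATXR6, BARD1, ORC6 and both SYN3 copies as differing specifically at pre-squaring in these same libraries. Smaller effects at squaring went with that choice, so nothing is read from the contrast between the stages for these genes. Of 8 flowering and meristem regulators only NF-YC13, a subunit of a CCAAT-binding factor, met the limits (4.58 and 7.85). None of 4 circadian clock genes, 9 cell wall genes or 4 green-leaf genes did, nor did the phloem transporter gene SUC2. The study had listed LHY, EPR1 and PRR5 as lower in Gh2np, and SVP, RAV1 and IAA18 as lower in both nulliplex-branch lines at pre-squaring. It had listed SUC2 as higher in Gh3np. These genes could thus not meet the limits, and nothing is read from the contrast between the lists.

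The summed level of the green-leaf genes differed between the branch types at both later stages of both species, higher in the nulliplex-branch line except at squaring in G. hirsutum. It was 32.2 to 43.6 RPKM in Gh2WT and 70.4 to 80.6 in Gh2np, 72.1 to 89.1 in Gh3WT and 56.7 to 64.0 in Gh3np. In G. barbadense it was 30.2 to 43.7 RPKM in Gb2WT and 108 to 109.8 in Gb2np, 38.0 to 63.3 in Gb3WT and 68.2 to 73.4 in Gb3np. TROL alone went against the sum at pre-squaring in G. hirsutum, with a mean of 2.32 RPKM in Gh2np and 5.54 in Gh2WT. None of the 4 was at 0 in any library. In Gb2np 3 of them were called higher, where 4.94% of all genes were. The study had listed all 4 as differing at pre-squaring in these same libraries, so those calls are not independent evidence. Their part in the differences of the 137 genes was not tested.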

How the data were processed

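Per the labels and the study's methods, the authors aligned Illumina reads of shoot apices with SOAP2, allowing up to 5 mismatches, to the G. hirsutum genome of the Chinese Academy of Agricultural Sciences, and deposited for each library the read count and the RPKM of each gene. A gene not listed in a library was taken as 0. The counts were tested with edgeR 4.0.16 in R 4.3.3 (quasi-likelihood F test, TMM scaling, filterByExpr with a minimum count of 10, prior count 0.125), with the 2 groups of each comparison in a fit (4 for the difference between stages). Genes were called at a Benjamini-Hochberg adjusted p under 0.001 over all genes tested and an absolute log2 fold change over 1, which are the study's thresholds. Alternatives were DESeq2 1.42.0, limma 3.58.1 on log2(RPKM + 1), no filter, a replicate block, all 36 libraries in a fit, an adjusted p under 0.05, each library left out and, chosen after seeing the data, the 24 later libraries in a fit. The scripts were tested on simulated counts.

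The genes, lists and tests were chosen with earlier results of these data known. Named are the genes the study names, the 10 most abundant, the 5 with the largest turn, up to 3 in each direction per comparison, the 3 on each side of the limits and the 3 least like the rest; CotAD_28128, CotAD_60753 and CotAD_65940 at pre-squaring were also given after their values were seen. The study describes its replicates as biological; nothing more is given on them. The small RNA libraries were not used here. No gene sequence is shown.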

Additional observations from a re-analysis of the deposited data

Results flagged for a closer look

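For 3 of the 131 genes tested, CotAD_19217, CotAD_35518 and CotAD_20876, the branch effect in G. barbadense differed between pre-squaring and squaring by a test of the difference itself, by 3.56, 3.16 and 1.78 on the log2 scale. In that direction 1.39% of all genes tested were called, so the count of 3 was close to that share and nothing is read from it. The call of CotAD_20876 was lost in 10 of the 12 fits that left out 1 library, with the replicate block (adjusted p = 0.0015), with limma (0.0012), with the 24 later libraries (0.0024) and with all 36 libraries (0.14). The study had picked this gene as differing specifically at pre-squaring in these same libraries, so its call is not independent evidence.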

How the results depend on the processing

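Counts of the 137 genes called in both directions together moved as follows, with the share of all genes called in parentheses. At pre-squaring in G. barbadense the 53 (9.88%) became 10 (5.27%) with all 36 libraries in a fit and 85 (40.2%) at an adjusted p under 0.05 with no fold limit. At squaring the 4 (1.10%) became 28 (16.9%) at that threshold, 9 (4.54%) with DESeq2 and 7 (4.08%) with the 24 later libraries. The 3 (2.10%) of the difference between stages became 34 (18.3%), 13 (4.16%) with DESeq2 and 6 (2.22%) with no filter. In G. barbadense seedlings the 2 (0.429%) became 6 (2.96%) at an adjusted p under 0.05, 4 (1.51%) with all 36 libraries, 7 (1.58%) with DESeq2, 1 (0.44%) with limma and 0 (0.0908%) with the replicate block. In G. hirsutum seedlings 1 was called with all 36 libraries (1.08%). In Hai1 from pre-squaring to squaring 3 were called both at an adjusted p under 0.05 (1.03%) and with DESeq2 (0.664%). In Xinhai16 the 12 (4.11%) became 58 (34.6%), 3 (2.82%) with all 36 libraries, 7 (4.23%) with the 24 later libraries, 20 (5.5%) with DESeq2 and 6 (2.61%) with the replicate block. From seedling to pre-squaring the 26 (20.3%) in Hai1 became 48 (56.3%) at an adjusted p under 0.05, and the 39 (16.5%) in Xinhai16 became 94 (56.7%) there and 71 (18.6%) with DESeq2. Leaving out 1 library gave 41 to 56 at pre-squaring (7.23% to 9.77%) and 3 to 4 at squaring (0.423% to 1.00%). It gave 2 to 5 for the difference (0.823% to 2.30%), the 5 without Gb3np replicate 1 or Gb3WT replicate 3. In Gb seedlings it gave 0 to 1 (0.0312% to 0.508%), the 0 without Gb1np replicate 1 or any Gb1WT library. In Gh seedlings and for the later step of Hai1 it gave 0 (0%). The later step of Xinhai16 had 1 to 18 (1.34% to 4.79%). The earlier steps had 18 to 23 in Hai1 (13.7% to 20.7%) and 17 to 80 in Xinhai16 (7.40% to 23.7%). Same-numbered libraries shared only a number (their deviations correlated from -0.36 to 0.16). The replicate block gave 57 calls at pre-squaring (8.84%), 3 at squaring (0.491%) and 2 for the difference (1.53%). No called value of a named gene changed its direction in these fits. The number of genes meeting the rule was 672 at 1.5-fold, 6 at 3-fold, and 84 to 198 with 1 G. hirsutum library left out (84 without Gh2WT replicate 2). TMM scaling gave 153, of which 131 were shared.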
